A study of Mus musculus with 15 samples.

Results

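Chemokines are small secreted proteins that guide cell migration, and the chemokine and chemokine receptor genes were taken from the deposited table as every gene whose symbol is Ccl, Ccr, Cxcl or Cxcr followed by a number and at most 1 letter, with Cxcl12 and Cxcr4 left out. The rule found 46 of the 28876 genes, of which 45 are described: 19 CC ligands, 12 CXC ligands, 9 CC receptors and 5 CXC receptors. RNA had been sequenced from the aorta-gonad-mesonephros (AGM) region of C57BL/6 mouse embryos, the tissue in which the first hematopoietic stem cells develop. E9 AoD and E9 AoV are the dorsal and ventral parts of the region at embryonic stage E9.5, E10 AoD and E10 AoV are the same parts at E10.5, and E10 UGR is the pair of urogenital ridges at E10.5. Each of these 5 groups had 3 libraries from separate experiments, each library was made from tissue pooled over 15 to 34 embryos, and the labels name no transgene or treatment. The dissected parts are mixed tissues, so a level here is an average over all the cells in the part.

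Chemokines are named by the spacing of their first cysteines: CC ligands bind CCR receptors and CXC ligands bind CXCR receptors, all of them G protein-coupled receptors except for atypical members such as Cxcr7, which takes up its ligands without signalling through G proteins. CC ligands such as Ccl2, Ccl3 and Ccl4 are made by activated macrophages and draw in monocytes and macrophages that carry Ccr1 or Ccr2. Among the CXC ligands, those of the Cxcl1 type recruit neutrophils, Cxcl9, Cxcl10 and Cxcl11 are induced by interferons, and others such as Cxcl13 and Cxcl14 are made by stromal or epithelial cells in resting tissue. Cxcl12, the ligand of Cxcr4 and of Cxcr7, is the chemokine best known for retaining hematopoietic stem cells in their niche.

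Levels are in RPM, the reads of a gene for every 1000000 reads that fell on genes, and depth was worked out from the smallest steps between low values, which gave 33750000 to 48640000 reads per library. A count of 3 reads, the most that an observed count of 0 allows, corresponds to 0.0617 to 0.0889 RPM depending on the library. These floors and all counting intervals below cover counting error only. Replicate libraries of a group correlated with r of 0.993 to 0.997 across genes, which are not independent replicates. The sum of 9 erythroid markers differed within groups, most in E9 AoV, where it ran from 2989 RPM in replicate 2 to 14150 RPM. The labelled parts were checked against marker genes. The summed RPM of 15 notochord, somite and neural tube markers was 661 to 785 in E9 AoD and 733 to 864 in E10 AoD, and at most 181 in any library of the other 3 groups. The sum of 11 urogenital ridge markers was 721 to 754 in E10 AoV and 818 to 897 in E10 UGR, and at most 198 elsewhere. The sum of 10 gut endoderm and liver markers was 526 to 777 in E9 AoV and at most 46.0 elsewhere. The part of endodermal tissue in the differences of E9 AoV was not tested.

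Promoter windows are shown for 6 of the genes that differed between groups. They set the motifs that chemokine promoters are known for beside the measured levels. Ccl3, Ccl6 and Ccr1 differed too, but their windows held no match to the motifs marked below and are not printed. Each window runs from 250 bases before to 50 bases after the annotated start, 5′ to 3′ on the strand of the gene, from RefSeq with the GRCm38.p6 build. Capitals mark matches, on either strand, to an interferon-stimulated response element (GAAANNGAAA), a kappaB motif (GGGNNNTTCC), an AP-1 motif (TGANTCA) or a TATA box (TATAAA).
Cxcl10 promoter, chr5:92348840-92349139, minus strand: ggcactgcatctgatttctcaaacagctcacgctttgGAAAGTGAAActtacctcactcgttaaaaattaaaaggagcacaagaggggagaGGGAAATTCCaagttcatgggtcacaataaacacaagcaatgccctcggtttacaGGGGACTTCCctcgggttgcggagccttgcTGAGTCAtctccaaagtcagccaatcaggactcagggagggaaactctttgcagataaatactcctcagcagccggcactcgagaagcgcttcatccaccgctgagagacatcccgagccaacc
Cxcl1 promoter, chr5:90890995-90891294, plus strand: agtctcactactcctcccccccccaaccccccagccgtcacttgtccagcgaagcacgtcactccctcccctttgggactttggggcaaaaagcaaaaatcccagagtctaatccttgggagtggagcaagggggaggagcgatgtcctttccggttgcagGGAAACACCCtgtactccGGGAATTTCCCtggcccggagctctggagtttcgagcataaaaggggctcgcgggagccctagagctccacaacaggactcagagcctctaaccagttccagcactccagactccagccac
Ccl9 promoter, chr11:83578587-83578886, minus strand: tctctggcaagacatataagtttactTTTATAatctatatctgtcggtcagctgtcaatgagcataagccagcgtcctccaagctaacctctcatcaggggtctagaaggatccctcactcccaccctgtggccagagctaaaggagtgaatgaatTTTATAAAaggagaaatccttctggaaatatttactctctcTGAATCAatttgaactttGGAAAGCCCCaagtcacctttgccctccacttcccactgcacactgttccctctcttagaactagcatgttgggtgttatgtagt
Cxcl13 promoter, chr5:95956689-95956988, plus strand: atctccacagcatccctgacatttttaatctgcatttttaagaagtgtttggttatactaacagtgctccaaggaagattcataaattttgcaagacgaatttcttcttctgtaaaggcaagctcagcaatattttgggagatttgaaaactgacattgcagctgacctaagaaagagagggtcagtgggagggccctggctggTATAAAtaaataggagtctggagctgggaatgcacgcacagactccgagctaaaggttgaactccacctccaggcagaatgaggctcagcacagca
Cxcl14 promoter, chr13:56296502-56296801, minus strand: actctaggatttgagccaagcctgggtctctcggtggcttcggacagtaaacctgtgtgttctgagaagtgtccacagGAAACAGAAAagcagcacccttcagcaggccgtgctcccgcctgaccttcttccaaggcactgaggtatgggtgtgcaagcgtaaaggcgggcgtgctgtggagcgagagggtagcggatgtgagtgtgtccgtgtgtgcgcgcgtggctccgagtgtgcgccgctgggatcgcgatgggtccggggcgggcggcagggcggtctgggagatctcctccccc
Cxcl15 promoter, chr5:90794284-90794583, plus strand: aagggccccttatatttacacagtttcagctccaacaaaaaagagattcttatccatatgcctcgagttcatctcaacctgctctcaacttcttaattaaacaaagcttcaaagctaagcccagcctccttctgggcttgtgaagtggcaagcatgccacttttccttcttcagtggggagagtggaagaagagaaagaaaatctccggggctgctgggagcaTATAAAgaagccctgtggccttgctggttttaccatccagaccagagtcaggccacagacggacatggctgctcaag
The Cxcl10 window held an interferon-stimulated response element starting 213 bases before the annotated start, kappaB motifs at 159 and 104 bases and an AP-1 motif at 74 bases before it. The Cxcl1 window held kappaB matches at 89, 71 and 70 bases before its start, the last 2 being overlapping matches on opposite strands. In Ccl9 a kappaB match lay 35 bases and an AP-1 match 53 bases before the start. Cxcl13 and Cxcl15 had a TATA box 46 and 27 bases before the start and no match to the other 3 motifs, and Cxcl14 had a match to the interferon motif at 172 bases. Windows were found for 12 of the 17 genes tested below, 15 windows in all, with no entry for Ccl2, Ccl4, Ccr7, Cxcl16 and Cxcr5. The interferon motif was in 2 of these 15 windows and in 3.44% of all 32851 windows. The kappaB motif was in 3 of the 15 and 5.56% of all, the AP-1 motif in 3 and 7.81%, and the TATA box in 5 and 13.6%. Motifs searched but not marked were ETS (GAGGAA), in 4 of the 15 and 28.3% of all, and C/EBP (TTGNGNAA), in 3 and 13.3%. Ccl3 and Ccr1 each had a match to both of these. A match is a string of letters in these windows and does not show that a factor binds there.

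Most of the family was at low levels in the AGM region. Of the 45 genes, 28 (62.2%) were below 0.5 RPM in all 15 libraries, compared with 35.7% of the 28876 genes of the table. The 28 genes were the CC ligands Ccl5, Ccl7, Ccl11, Ccl12, Ccl17, Ccl19, Ccl20, Ccl21a, Ccl21b, Ccl21c, Ccl22 and Ccl24, the CXC ligands Cxcl2, Cxcl3, Cxcl5, Cxcl9, Cxcl11 and Cxcl17, the CC receptors Ccr2, Ccr3, Ccr4, Ccr6, Ccr8, Ccr9 and Ccr10, and the CXC receptors Cxcr2, Cxcr3 and Cxcr6. Their highest values in any library ran from 0.0232 RPM for Cxcl9 to 0.467 RPM for Ccr4 and Cxcl5. Thus 18 of 31 ligands and 10 of 14 receptors stayed below 0.5 RPM. Reads of Ccl19, Ccl21a, Ccl21b and Ccl21c were divided among near copies, so the low values of these ligands are uncertain. At 0.25 RPM the count was 21 genes, and at 1 RPM it was 32. Just above the 0.5 RPM limit was Ccr7 at 0.691 RPM in its highest library.

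Within this low set, 11 genes never exceeded 3 reads in any library: Ccl5, Ccl19, Ccl20, Ccl22, Ccr3, Ccr6, Ccr8, Ccr9, Cxcl9, Cxcl11 and Cxcl17. These include Ccr9, the receptor of Ccl25, and 2 of the 3 interferon-induced ligands of Cxcr3. At this depth these 11 could not be told apart from absent, but Ccl19 shares 96.4% of its 50-base stretches with near copies, so its level is uncertain. The others were above the floor in at least 1 library. Ccr4, the receptor of Ccl17 and Ccl22, was at 0.467, 0.349 and 0.428 RPM in E9 AoD, at 0.182, 0.232 and 0.214 RPM in the ventral part of that stage, and between 0.0282 and 0.166 RPM in the 9 libraries of E10.5. The E9 AoD libraries were above all others for Ccr4. Ccl24, an eotaxin that binds Ccr3, was at 0 RPM throughout the 6 E9.5 libraries and reached 0.282, 0.376 and 0.213 RPM in E10 AoD, a mean at least 3.6-fold above the limit of 3 reads per library. Ccl12, a mouse monocyte chemoattractant that binds Ccr2, had at most 1 estimated read in each E9 AoD library and was at 0.282, 0.276 and 0.379 RPM in E10 AoD. Ccr2 itself did not exceed 0.278 RPM. These 28 genes were left out of the main fit and entered only alternative fits, given at the end.

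**Figure D1:**
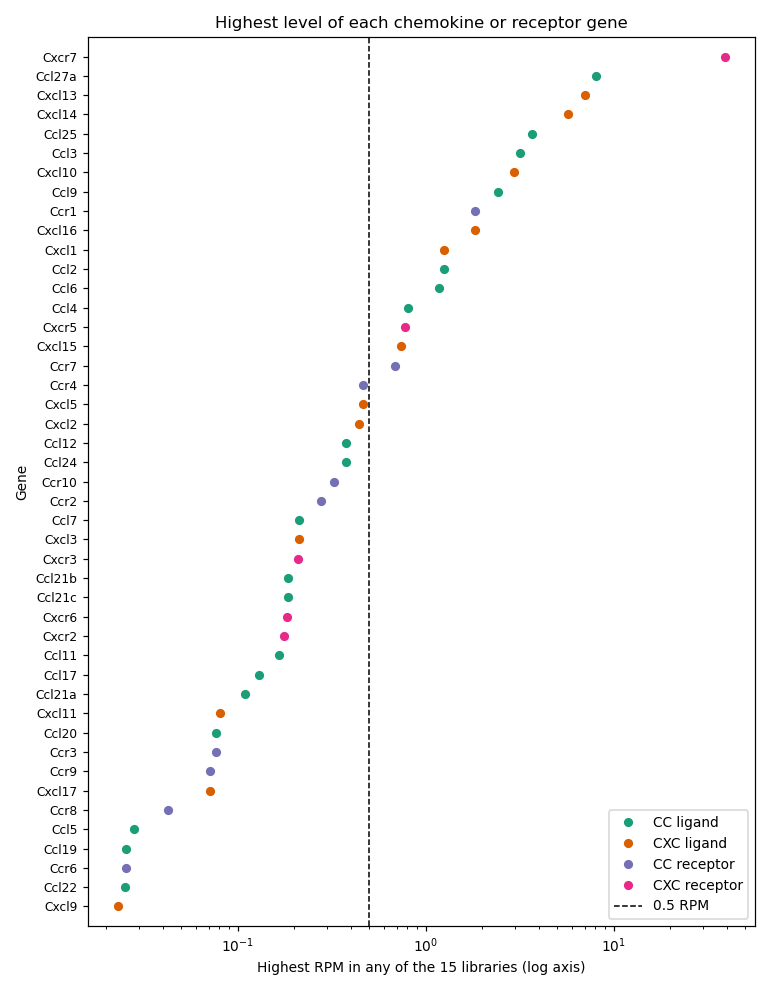
Highest RPM of each of the 45 genes in any of the 15 libraries, on a log axis, coloured by class of ligand or receptor, with a dashed line at 0.5 RPM. The 28 genes left of the line end at 0.467 RPM (Ccr4 and Cxcl5), and Cxcr7 stands furthest to the right at 39.0 RPM.

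Only 6 genes were at 0.5 RPM or more in every library: Cxcr7, Ccl25, Ccl27a, Cxcl13, Cxcl14 and Cxcl16. Cxcr7, the atypical scavenging receptor of Cxcl12 and Cxcl11 that is listed as Ackr3 in RefSeq, was by far the most abundant. It was at 36.2, 33.9 and 39.0 RPM in E9 AoD, 36.6, 36.2 and 35.9 RPM in E9 AoV, then at 23.3, 23.2 and 20.7 RPM in E10 AoD, 24.4, 28.9 and 24.7 RPM in E10 AoV and 34.1, 38.3 and 34.8 RPM in E10 UGR. Both aortic parts were lower at E10.5 than at E9.5 with no overlap, and the urogenital ridges were level with the E9.5 libraries. Cxcr7 alone made up 41.4% to 71.5% of the summed RPM of the 45 genes, with its highest share in E9 AoD. The remaining 44 genes together came to 15.6 to 19.1 RPM in E9 AoD and to 29.3 to 34.5 RPM in E10 AoV.

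Divided by exon length, Cxcr7 had a mean of 10.9 RPM per kb in the dorsal and 10.8 in the ventral part at E9.5, 6.69 and 7.77 RPM per kb in the same parts at E10.5 and 10.7 RPM per kb in the urogenital ridges, and it ranked first in each group. The gene in second place differed: it was Cxcl14 at 2.07 RPM per kb in E9 AoD, Cxcl13 at 5.61 in E9 AoV and 4.56 in E10 AoV, and Ccl3 at 3.55 in E10 AoD. In E10 UGR, Ccl3 (2.72 RPM per kb), Ccl27a (2.67) and Cxcl14 (2.59) were within their replicate spread of each other. Cxcr5, the receptor of Cxcl13, was at 0.117 to 0.266 RPM per kb, and Cxcr3, the receptor of Cxcl10, did not exceed 0.21 RPM in any library.

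**Figure D2:**
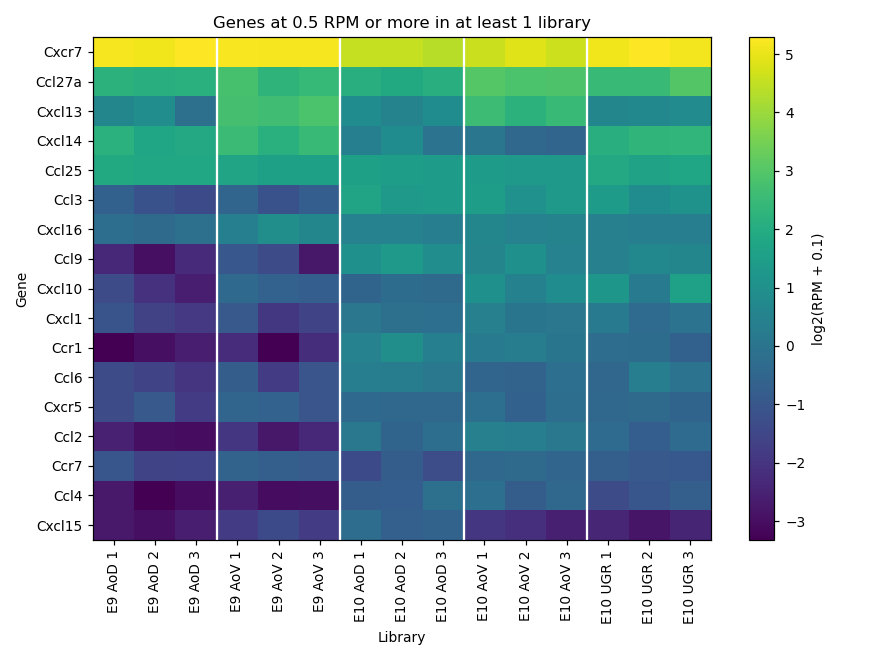
Level of the 17 genes that reached 0.5 RPM in at least 1 library, as log2(RPM + 0.1), with genes in rows ordered by mean level and the 15 libraries in columns, white lines dividing the 5 groups. Cxcr7 is the brightest row, and Ccl2, Ccl4, Ccl9 and Ccr1 are darkest in the 6 libraries of E9.5.

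Differences between groups were tested with limma on log2(RPM + 0.1) over all 18553 genes at 0.5 RPM or more in at least 1 library, and a gene was called where the Benjamini-Hochberg adjusted p was under 0.05 and the fold was at least 2. Fold changes below are on the log2(RPM + 0.1) scale and understate the change of genes with low levels. The 17 genes past the filter include 7 that were below 0.5 RPM in all 6 libraries of E9.5 and so entered through their E10.5 levels: Ccl2, Ccl4, Ccl6, Ccl9, Ccr1, Cxcl1 and Cxcl15. Counts are therefore given out of all 45 genes, with the 28 below the filter as not called. They are set beside the share of the genes tested and of all 28876 genes that were called. In at least 1 of 6 comparisons of groups 11 of the 45 genes were called, where 25.2% of all genes tested and 16.2% of all genes were.

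With stage, 4 CC ligands, the receptor Ccr1 and 2 CXC ligands rose in both aortic parts. In the ventral part 7 genes rose and 1 fell (17.8% of the 45), where 6.04% of all genes tested were called higher, 4.99% lower and 11% in either direction (7.09% of all genes). In the dorsal part 9 rose and 1 fell (22.2% of the 45), where 8.6% of all genes tested were called higher, 4% lower and 12.6% in either direction (8.09% of all genes). The same 7 genes rose in both parts, which was 15.6% of the 45 against 3.25% of all genes tested and 2.09% of all genes: Ccl2, Ccl3, Ccl4, Ccl9, Ccr1, Cxcl1 and Cxcl10. Cxcl14 fell in both. With a pseudocount of 1 RPM the rises of Ccl3 and Ccl9 in both parts, the rise of Ccr1 in the dorsal part and the fall of Cxcl14 were still called, and the other rises with stage were not. Ccl6 and Cxcl15 rose in the dorsal part and were not called in the ventral part, and the test of that difference is given further on. In bulk tissue, more cells of a type and more RNA per cell cannot be told apart.

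Ccr1 is a receptor for Ccl3 and Ccl9 on myeloid cells. It was at 0, 0.0269 and 0.0641 RPM in E9 AoD and at 1.31, 1.83 and 1.21 RPM in E10 AoD, and in the ventral part at 0.114, 0 and 0.119 RPM at E9.5 and at 1.04, 1.13 and 0.908 RPM in E10 AoV. Every library of E10.5 was above every library of E9.5, the urogenital ridges (0.741, 0.72 and 0.535 RPM) included. Ccr1 rose by 2.75 ± 0.29 (SE) in the ventral part (adjusted p = 2e-06) and 3.58 ± 0.29 in the dorsal part (adjusted p = 8.78e-08). Its estimated reads, summed over 3 libraries, went from 4 to 175 in the dorsal part. That was a ratio of 45, with a 95% counting interval of 17.3 to 167.

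Ccl3, a macrophage inflammatory protein that binds Ccr1, was the most abundant of the rising CC ligands per length. It was at 0.541, 0.349 and 0.278 RPM in E9 AoD, 0.593, 0.348 and 0.499 RPM in E9 AoV, then at 3.18, 2.41 and 2.56 RPM in E10 AoD, 2.65, 1.94 and 2.38 RPM in E10 AoV and 2.55, 1.71 and 2.0 RPM in E10 UGR. The stages did not overlap, while the 3 tissues of E10.5 did. Ccl3 rose by 2.55 ± 0.22 in the dorsal part (adjusted p = 1.96e-07) and 2.08 ± 0.22 in the ventral part (adjusted p = 2.46e-06).

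Ccl4, a macrophage inflammatory protein that lies beside Ccl3 in the genome, was at 0.0492, 0 and 0.0214 RPM in E9 AoD and 0.0684, 0.0232 and 0.0238 RPM in E9 AoV. It was at 0.487, 0.502 and 0.805 RPM in E10 AoD, 0.778, 0.486 and 0.629 RPM in E10 AoV and 0.296, 0.391 and 0.507 RPM in E10 UGR. No library of E9.5 held more than 3 reads, and every library of E10.5 was higher. The ratio of summed reads was 25 in the dorsal part (counting interval 8.24 to 124) and 16.3 in the ventral part (6.67 to 51.5).

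Ccl9, a mouse ligand of Ccr1, was at 0.0983, 0.0269 and 0.107 RPM in E9 AoD and 0.41, 0.301 and 0.0475 RPM in E9 AoV. It was at 1.92, 2.43 and 1.75 RPM in E10 AoD, 1.4, 1.92 and 1.3 RPM in E10 AoV and 1.24, 1.54 and 1.44 RPM in E10 UGR. E9.5 and E10.5 did not overlap, and the 3 E9 AoV libraries spread more widely than those of any other group relative to their mean. Ccl9 rose by 3.61 ± 0.35 in the dorsal part (adjusted p = 7.14e-07) and 2.38 ± 0.35 in the ventral part (adjusted p = 6.7e-05). Its dorsal change was the highest fitted of all 17 genes but was within its SE of that of Ccr1 (3.58 ± 0.29). The dorsal ratio of mean RPM was 26.3 for Ccl9 and 47.8 for Ccr1.

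Ccl2, the monocyte chemoattractant that binds Ccr2, was at 0.0737, 0.0269 and 0.0214 RPM in E9 AoD and 0.16, 0.0464 and 0.0951 RPM in E9 AoV. It was at 0.999, 0.577 and 0.758 RPM in E10 AoD, 1.25, 1.18 and 1.0 RPM in E10 AoV and 0.711, 0.493 and 0.704 RPM in E10 UGR. E10.5 was above E9.5 in every library, while the difference of E10 AoV from E10 AoD was 0.52 ± 0.24 (adjusted p = 0.114) and that from E10 UGR was 0.77 ± 0.24 (adjusted p = 0.029), neither of them called. Ccl2 rose by 2.67 ± 0.24 in the ventral part (adjusted p = 5.68e-07) and 2.63 ± 0.24 in the dorsal part (adjusted p = 4.16e-07). Summed reads went from 5 to 94 in the dorsal part, a ratio of 19.3 (counting interval 8.0 to 61.0).

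Ccl6, another mouse ligand of Ccr1, was at 0.295, 0.242 and 0.15 RPM in E9 AoD and 1.18, 1.15 and 0.994 RPM in E10 AoD, and it rose there by 1.90 ± 0.27 (adjusted p = 2.72e-05). It was at 0.479, 0.186 and 0.38 RPM in the ventral part at E9.5, 0.597, 0.563 and 0.792 RPM in the same part at E10.5 and 0.622, 1.17 and 0.873 RPM in E10 UGR. In the ventral part the groups did not overlap either, but the difference of 0.79 ± 0.27 was under the fold of 2 (adjusted p = 0.0259).

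Of the CXC ligands, Cxcl1, a neutrophil chemoattractant that binds Cxcr2, rose by 1.65 ± 0.26 in the ventral part (adjusted p = 0.000113) and 1.47 ± 0.26 in the dorsal part (adjusted p = 0.000208). It was at 0.369, 0.215 and 0.171 RPM in E9 AoD, 0.433, 0.162 and 0.238 RPM in E9 AoV, then at 0.974, 0.803 and 0.781 RPM in E10 AoD, 1.25, 0.921 and 0.955 RPM in E10 AoV and 1.04, 0.699 and 0.873 RPM in E10 UGR. The tissues of each stage overlapped with each other, and the stages did not overlap. Cxcr2, its receptor, stayed at or below 0.176 RPM.

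**Figure D3:**
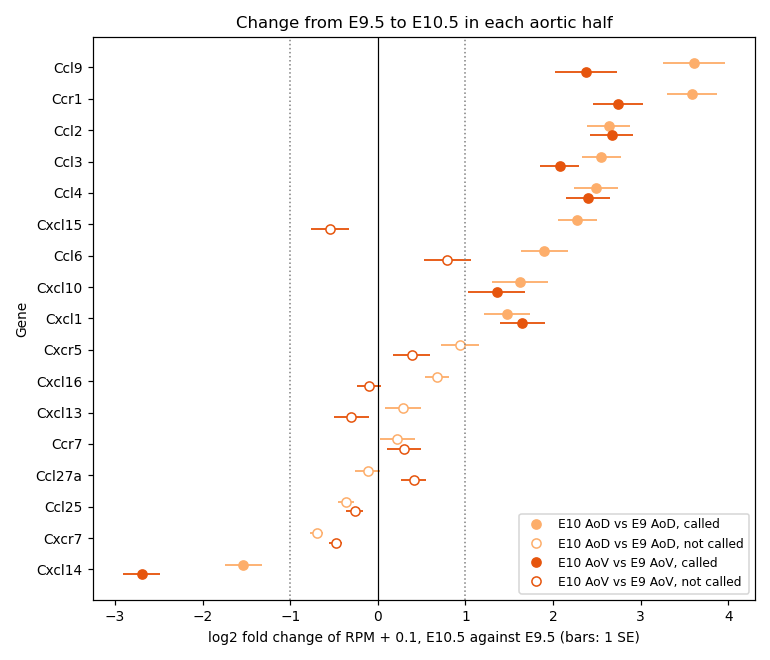
Log2 fold change of RPM + 0.1 from E9.5 to E10.5 for the 17 genes tested, in the dorsal (E10 AoD vs E9 AoD) and ventral (E10 AoV vs E9 AoV) parts, with bars of 1 SE, filled points for called genes and dotted lines at a fold of 2. Ccl9 reaches 3.61 and Ccr1 3.58 in the dorsal part, Cxcl14 is lowest in both, and Cxcl15 lies on opposite sides of 0 in the 2 parts.

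Macrophage marker genes moved with these CC ligands and Ccr1. The list of 15 markers, among them the receptor Csf1r, the complement genes C1qa, C1qb and C1qc, and the surface genes Emr1 and Mrc1, had summed RPM of 7.43 to 11.9 in the dorsal part at E9.5 and 82.8 to 95.7 at E10.5, of 14.1 to 17.5 and 64.0 to 76.6 in the ventral part, and of 52.6 to 60.1 in the urogenital ridges. Among all genes tested, 8.6% were called higher with stage in the dorsal part and 6.04% in the ventral part. Of the 14 markers tested, 12 rose with stage in the dorsal part and 13 in the ventral part, and none fell. Examples were C1qb (4.51), Emr1 (4.36) and Mrc1 (4.35) in the dorsal part and Emr1 (3.98) and C1qc (3.51) in the ventral part. No marker of the list was at 0 in every library of any group. Of the 15 markers, 6 reached 0.5 RPM in E9 AoD, 9 in E9 AoV and 14 in each of E10 AoD and E10 AoV. A marker could thus enter the test through its E10.5 levels alone. Between E10 AoD and E10 UGR, 0 markers were called by limma at a fold of 2, with a median log2 fold change of 0.70. Of the 14 tested, 10 had an adjusted p under 0.05 and 13 an unadjusted p under 0.05. Of 12 lymphoid and granulocyte markers found, 2 reached 0.5 RPM in any library, and their summed RPM was at most 5.36. Markers of other cells moved with stage too. Of 8 smooth muscle and subaortic mesenchyme markers 6 rose in the dorsal and 4 in the ventral part, of 10 megakaryocyte and platelet markers 7 and 2, and of 10 hematopoietic progenitor markers 5 and 4, with none lower. The summed RPM of the smooth muscle list was 281.6 to 425.1 in E9 AoD and 1043 to 1148 in E10 AoD, and that of the platelet list 47.4 to 80.6 and 220.8 to 240.0 RPM. The part of any of these cells in the rise of the chemokine genes was not tested.

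**Figure D4:**
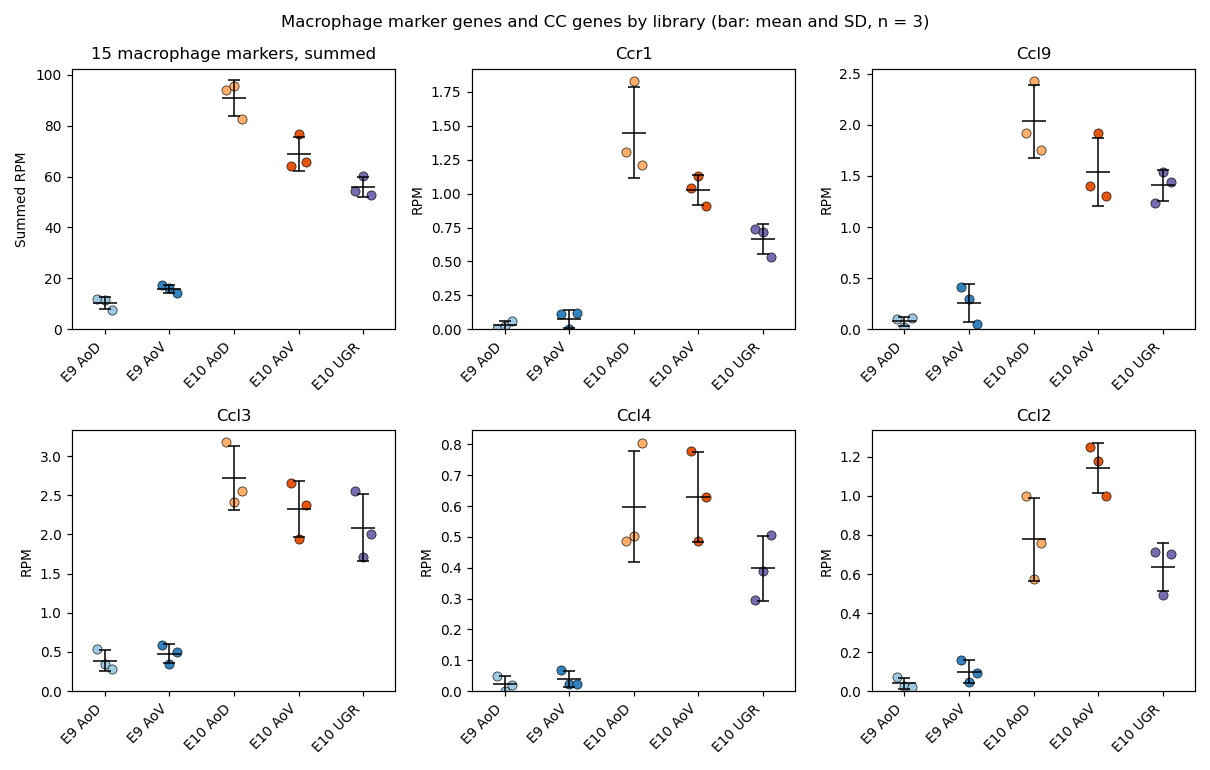
Summed RPM of the 15 macrophage markers and RPM of Ccr1, Ccl9, Ccl3, Ccl4 and Ccl2 by group, with 1 point per library and a bar for the mean and SD of 3 libraries, cut off at 0. In each panel every library of E10.5 is above every library of E9.5, and the marker sum is 82.8 to 95.7 in E10 AoD.

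At a fold of at least 2 the genes called between dorsal and ventral parts were Cxcl13, Cxcl10 and Cxcl15, all CXC ligands, at both stages. Without the fold threshold 7 genes passed at each stage. In the ventral part 6 were higher and 1 lower at E9.5, and 5 higher and 2 lower at E10.5. They included the receptor Ccr7 at both stages and the CC ligand Ccl27a at E10.5. With a pseudocount of 0.5 or 1 RPM the calls of Cxcl10 and Cxcl15 were lost at both stages and that of Cxcl13 was kept. Between E9 AoV and E9 AoD 3 genes were higher in the ventral part and 0 lower (6.67% of the 45), where 8.32% of all genes tested were called higher, 3.47% lower and 11.8% in either direction (7.57% of all genes). In that limma fit 1 gene, Ccl25, was lower by less than a fold of 2 (-0.24 ± 0.10, adjusted p = 0.0494). Between E10 AoV and E10 AoD 2 were higher and 1 lower (6.67% of the 45), where 5.81% were called higher, 4.29% lower and 10.1% in either direction (6.49% of all genes).

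Cxcl13, the ligand of Cxcr5 that organises lymphoid follicles in the adult, was higher in the ventral part at both stages. It was at 1.45, 1.77 and 0.812 RPM in E9 AoD and 6.59, 6.12 and 7.06 RPM in E9 AoV, and at 1.72, 1.35 and 1.73 RPM in E10 AoD, 5.86, 4.58 and 5.61 RPM in E10 AoV and 1.45, 1.52 and 1.66 RPM in E10 UGR. Each ventral library was above every dorsal and urogenital library. The difference was 2.27 ± 0.20 at E9.5 (adjusted p = 4.1e-07) and 1.68 ± 0.20 at E10.5 (adjusted p = 1.07e-05), and E10 AoV was above E10 UGR by 1.72 ± 0.20 (adjusted p = 1.28e-05). The ventral difference at E10.5 minus that at E9.5 was -0.59 with a 95% interval of -1.21 to 0.03 (adjusted p = 0.151). Cxcr5 was at 0.192 to 0.778 RPM and was not called in any comparison.

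Cxcl10, the interferon-induced ligand of Cxcr3 whose promoter window is printed above, was at 0.295, 0.134 and 0.0667 RPM in E9 AoD and 0.665, 0.547 and 0.502 RPM in E9 AoV. It was at 0.587, 0.722 and 0.695 RPM in E10 AoD, 1.88, 1.27 and 1.74 RPM in E10 AoV and 2.23, 1.1 and 2.95 RPM in E10 UGR. The ventral part was above the dorsal part at each stage without overlap, and the urogenital ridge libraries were spread around those of E10 AoV. Cxcl10 was higher in the ventral part by 1.42 ± 0.32 at E9.5 (adjusted p = 0.00215) and 1.16 ± 0.32 at E10.5 (adjusted p = 0.0115). With stage it rose by 1.35 ± 0.32 in the ventral part (adjusted p = 0.00331) and 1.62 ± 0.32 in the dorsal part (adjusted p = 0.000597). An exon of Art3 overlaps 8.8% of the exon length of Cxcl10.

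Cxcl14, an epithelial and mesenchymal chemokine, was the 1 gene of the family called lower with stage at a fold of 2. It was at 4.42, 3.33 and 3.57 RPM in E9 AoD and 5.72, 4.29 and 5.61 RPM in E9 AoV, and at 1.2, 1.73 and 0.876 RPM in E10 AoD, 0.934, 0.639 and 0.605 RPM in E10 AoV and 4.21, 4.89 and 5.04 RPM in E10 UGR. Both aortic parts of E10.5 were below every other library, and the urogenital ridges were within the range of E9.5. Cxcl14 fell by 2.69 on the log2 scale in the ventral part (SE 0.21, adjusted p = 1.15e-07) and by 1.54 in the dorsal part (SE 0.21, adjusted p = 2.04e-05). Compared with the urogenital ridges it was lower in the ventral (-2.56 ± 0.21, adjusted p = 3.58e-07) and the dorsal part (-1.86 ± 0.21, adjusted p = 4.86e-06). Without the 0.5 RPM filter, and likewise with quantile normalization, 2 genes of the family were called lower with stage in the dorsal part.

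Cxcl15, a mouse chemokine known from the lung, differed between the parts in opposite directions at the 2 stages. It was at 0.0492, 0.0269 and 0.0641 RPM in E9 AoD, 0.182, 0.278 and 0.19 RPM in E9 AoV, then at 0.743, 0.527 and 0.568 RPM in E10 AoD, 0.156, 0.128 and 0.0699 RPM in E10 AoV and 0.0889, 0.0411 and 0.0845 RPM in E10 UGR. E10 AoD was above all other libraries, and E9 AoV came next with no overlap. Summed reads numbered 6 and 28 in the dorsal and ventral parts at E9.5, 74 in E10 AoD and 8 in the urogenital ridges. The ratio of E10 AoD to E9 AoD was 12.7 (counting interval 5.56 to 35.7), of E9 AoV to E9 AoD 4.51 (1.83 to 13.3) and of E10 AoD to E10 UGR 9.0 (4.34 to 21.6). E10 AoV was below E10 AoD (-1.72 ± 0.22 on the log2 scale, adjusted p = 2.06e-05). Without replicate 2 of E9 AoV, the difference between the parts at E9.5 was no longer called.

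**Figure D5:**
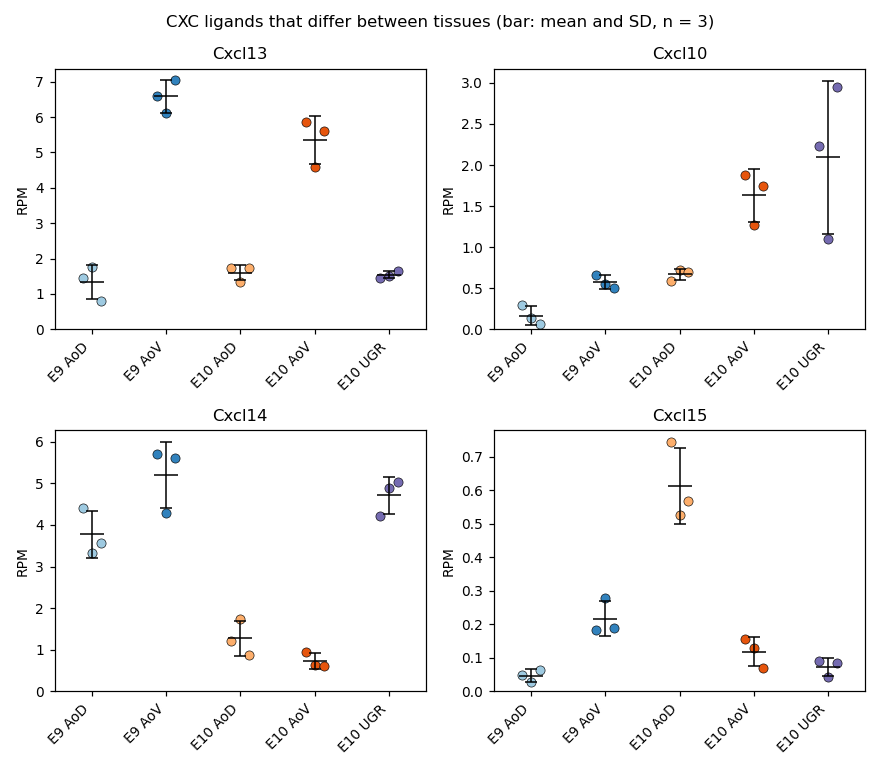
RPM of Cxcl13, Cxcl10, Cxcl14 and Cxcl15 by group, with 1 point per library and a bar for the mean and SD of 3 libraries. Cxcl13 is high in the 2 ventral groups, Cxcl10 in E10 AoV and E10 UGR, Cxcl14 in both E9.5 groups and E10 UGR, and Cxcl15 in E10 AoD at 0.527 to 0.743 RPM.

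The change with stage differed between the parts for 3 genes, all lower in the ventral part: Cxcl15 (-2.82 ± 0.31, adjusted p = 1.05e-05), Cxcl14 (-1.16 ± 0.30, adjusted p = 0.00921) and Ccl6 (-1.11 ± 0.38, adjusted p = 0.0416). They were 6.67% of the 45, where 6.89% of all genes tested were lower in this limma interaction, 4.12% higher and 11% in either direction (7.08% of all genes). No gene of the family was higher in it, and 1, Ccl27a, had a positive value with an unadjusted p under 0.05. Marker lists differed in this interaction as well: 5 of 14 macrophage markers, 5 of 8 smooth muscle markers and 8 of 10 gut endoderm and liver markers were lower and 0 higher, while 10 of 11 urogenital ridge markers were higher. Their part in the differences of the 3 genes was not tested. The call of Ccl6 was lost in 15 of 25 alternative fits, the block common to both stages included, and that of Cxcl14 without replicate 2 of E10 AoD.

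Against the urogenital ridges, E10 AoV differed in 2 genes (4.44% of the 45), Cxcl13 above and Cxcl14 below, where 3.84% of all genes tested were called higher, 3.73% lower and 7.57% in either direction (4.86% of all genes). E10 AoD differed from them in 4 genes (8.89%), where 4.76% were called higher, 6.56% lower and 11.3% in either direction (7.27% of all genes). Cxcl15 and Ccr1 (1.008 ± 0.29, adjusted p = 0.0109) were higher in E10 AoD, and Cxcl14 and Cxcl10 (-1.42 ± 0.32, adjusted p = 0.0027) were lower. The call of Ccr1 was lost without replicate 3 of E10 UGR and without replicate 2 of E10 AoD. The summed macrophage markers were higher in E10 AoD than in E10 UGR, at 82.8 to 95.7 against 52.6 to 60.1 RPM. So were those of platelets (220.8 to 240.0 against 41.4 to 48.1 RPM) and of smooth muscle (1043 to 1148 against 443.7 to 517.3 RPM). Some sums were lower in E10 AoD, that of the urogenital ridge markers included. The part of any of these cells in the difference of Ccr1 was not tested.

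The other 6 genes tested passed no comparison at a fold of 2. Cxcr7 differed by less than that fold: it was lower at E10.5 in the dorsal part (-0.70 ± 0.07 on the log2 scale, adjusted p = 1.77e-06) and in the ventral part (-0.48 ± 0.07, adjusted p = 9.75e-05), and lower in the dorsal part (-0.67, adjusted p = 3.79e-06) and the ventral part at E10.5 than in the urogenital ridges (-0.46, adjusted p = 0.000255). In the same libraries Cxcl12, its ligand, was at 293 to 444 RPM in E9 AoD and 1320 to 1350 RPM in E10 AoD, and at 233 to 277 RPM and 1010 to 1050 RPM in the ventral part at these stages.

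Ccl27a, a ligand of Ccr10, was at 4.5, 4.18 and 4.34 RPM in E9 AoD, 6.83, 4.71 and 5.41 RPM in E9 AoV, then at 4.19, 3.67 and 4.14 RPM in E10 AoD, 8.02, 7.17 and 7.23 RPM in E10 AoV and 5.48, 5.63 and 7.9 RPM in E10 UGR. The ventral libraries were above the dorsal ones of their stage, by 0.89 ± 0.14 at E10.5 (adjusted p = 0.000166). Exons of Ccl27a share 43.4% of their 50-base stretches with Ccl27b and other near copies, so its level is uncertain. Its receptor Ccr10 stayed at or below 0.326 RPM.

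Ccl25, a ligand of Ccr9 known from thymus and gut, had group means of 3.52 ± 0.137 (SD) RPM in E9 AoD and 2.72 ± 0.155 RPM in E10 AoD, of 2.97 ± 0.142 RPM and 2.45 ± 0.14 RPM in the ventral part at the same stages, and of 3.31 ± 0.282 RPM in the urogenital ridges (n = 3 each). It was lower at E10.5 by less than a fold of 2 in the dorsal (-0.36 ± 0.10, adjusted p = 0.00434) and ventral parts (-0.27 ± 0.10, adjusted p = 0.0328). Another entry named Ccl25 on the same strand overlaps 41.6% of its exon length, so its level is uncertain. Cxcl16, the transmembrane ligand of Cxcr6, was lowest in E9 AoD at 0.692 to 0.815 RPM and at 1.18 to 1.82 RPM in every other library. E9 AoV was above E9 AoD by 0.88 ± 0.14 (adjusted p = 0.000114), and 18.3% of the exon length of Cxcl16 overlaps Zmynd15 on the other strand. Ccr7, the receptor of Ccl19 and the Ccl21 ligands, was at 0.235 to 0.691 RPM and was higher in the ventral part by 0.67 ± 0.20 at E9.5 (adjusted p = 0.0112) and 0.74 ± 0.20 at E10.5 (adjusted p = 0.00807). Cxcr5 was at 0.192 to 0.43 RPM in E9 AoD and 0.639 to 0.666 RPM in E10 AoD, a difference of 0.93 ± 0.22 (adjusted p = 0.00181).

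The genes lie in clusters of duplicated genes. On NCBIM37, 28 of the 45 genes fell in 8 clusters with gaps of at most 200 kb, and 17 lay alone. The cluster at chr11:83339280-83478185 holds Ccl5, Ccl9, Ccl6, Ccl3 and Ccl4, of which Ccl3, Ccl4, Ccl6 and Ccl9 rose in at least 1 part and Ccl5 was at no more than 1 read in any library. The cluster at chr9:123587557-124028296 holds Ccr9, Cxcr6, Ccr1, Ccr3 and Ccr2, of which Ccr1 rose and the other 4 stayed below 0.5 RPM. At chr5:91188325-91334935, which holds Cxcl5, Cxcl3, Cxcl15, Cxcl1 and Cxcl2, Cxcl1 rose in both parts and Cxcl15 in the dorsal part only. At chr11:81849073-81916902, Ccl2 rose beside Ccl7, Ccl11 and Ccl12, and at chr5:92750357-92794511, Cxcl10 rose between Cxcl9 and Cxcl11. Cxcr7 (chr1:92100555-92113326), Cxcl13 (chr5:96385945-96390086) and Cxcl14 (chr13:56390008-56397912) lay alone. Near copies limit other members. Ccl21a, Ccl21b and Ccl21c share 99.8% to 100% of their 50-base stretches with each other or further copies. Ccl19 shares 96.4% with other genes, Gm2023 and Gm2442. In both cases most reads could not be assigned to a single copy.

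Other genes of the chemokine system were taken as fixed lists. Beside their counts, 8.6% of all genes tested were called higher with stage in the dorsal part and 4% lower. In the ventral part 6.04% were called higher and 4.99% lower. The filter could admit a gene of a list through its E10.5 levels alone. Of 16 chemokine and atypical receptor genes outside the name rule, 13 were tested, and 5 rose with stage in the dorsal part and 3 in the ventral part with none lower. The fractalkine receptor Cx3cr1, a macrophage and microglia gene, rose by 4.0 in the dorsal part and 3.43 in the ventral part, and Cxcl12 by 1.93 and 2.0. The median log2 fold change of the 13 was 0.72 in the dorsal part and 0.38 in the ventral part. Of 28 genes of chemokine receptor signalling, 7 rose in the dorsal part and 6 in the ventral part with none lower. The members with the largest changes were the hematopoietic GTPase Rac2 (2.77) and the leukocyte lipid kinase Pik3cg (2.72) in the dorsal part and Rgs1 (2.70) and Rgs16 (1.93), regulators of G protein signalling, in the ventral part. Of 16 tested genes of pathways that induce chemokines (22 in the list), 4 rose in the dorsal part, led by Tnf (2.12) and Irf1 (1.84). In the ventral part 5 rose, led by the interferon-induced Gbp2 (1.80) and by Tnf (1.78). Ifit1 and Ifit3, also interferon-induced, stayed below 0.5 RPM and were not tested. Ifit3 was at 0.45, 0.289 and 0.306 RPM in E9 AoV and 0.102, 0.105 and 0.148 RPM in E10 AoV. For Ifit1 these values were 0.149, 0.152 and 0.197 RPM and 0.0778, 0.0256 and 0.00291 RPM. Ifnb1 and Ifng, the interferons themselves, were at 0 in all libraries of the 4 aortic groups. Of 9 tested genes for glycosaminoglycan binding and chemokine cleavage, 1 rose in the dorsal part, Mmp2 (1.12), and 1 fell in the ventral part, Dpp4 (-2.25), a protease that cleaves chemokines.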

How the data were processed

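RNA from 15 libraries of dissected mouse AGM tissue, 5 groups of 3, had been made into TruSeq libraries and sequenced by the authors (50 bases, single-end). Alignment by the authors was to NCBI37/mm9 with TopHat and Bowtie 0.12.3, and reads were counted over Ensembl genes with GeneProf, which divided reads matching several genes in proportion to uniquely matched reads. The strand setting is not given in the sources used here. The deposited values are RPM, rounded by the authors to 3 significant digits. The table also holds the authors' 12 columns of comparisons, each a deposited log2 fold change or adjusted p-value, which were not used.

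The value of 1 read was found from steps between low RPM values (64.4% to 66.7% of low values were whole multiples), giving 33750000 to 48640000 reads per library. Whole reads were not recovered for enough genes for a count model. Members were matched by name and annotated from NCBIM37. Of the genes found by name 1 is not reported here, and it was left out of all counts of the family, as was 1 gene of the signalling list. limma 3.58.1 (R 4.3.3) with an intensity trend was fitted to log2(RPM + 0.1) of 18553 genes at 0.5 RPM or more in at least 1 library, with 1 mean per group. p-values were Benjamini-Hochberg adjusted over all of them. A gene was called at adjusted p under 0.05 and a fold of at least 2. Where a group held at most 3 reads per library, summed reads were compared with an exact conditional 95% interval. Every gene at 0.5 RPM or more is named, with all samples for those called or averaging 5 RPM in a group. The 2 to 4 genes with the largest change may be named from a list. Members and lists were chosen with earlier results of these data known. Alternatives were other pseudocounts, filters, scalings and fold thresholds, a replicate block common to both stages or, chosen after seeing the data, within each stage, a fit of 2 groups, no trend and each library left out. Libraries of E9 AoD and E9 AoV with the same replicate number deviated together from their group means in all 3 pairs (r of 0.19 to 0.452 across genes), so these numbers were taken to pair the samples, and no other 2 groups had all 3 pairs over 0.1. p-values measure the spread between pools of embryos.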

Additional observations from a re-analysis of the deposited data

Results flagged for a closer look

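Between E9.5 and E10.5 the ventral and dorsal parts changed by different amounts, by limma's interaction test, for 3 genes of the family, given as ventral minus dorsal change on the log2(RPM + 0.1) scale. Cxcl15 had a difference of -2.82 (adjusted p = 1.05e-05): its mean went from 0.0467 to 0.613 RPM in the dorsal part and from 0.217 to 0.118 RPM in the ventral part. Cxcl14 had a difference of -1.16 (adjusted p = 0.00921): it fell in both parts, from 3.77 to 1.27 RPM in the dorsal part and from 5.21 to 0.726 RPM in the ventral part. Ccl6 had a difference of -1.11 (adjusted p = 0.0416), with means of 0.229 and 1.11 RPM in the dorsal part and 0.348 and 0.651 RPM in the ventral part.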

How the results depend on the processing

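Of 33 calls, 12 were kept under all alternatives run (24, and 25 within a stage), 17 were lost only with larger pseudocounts, 4 were lost elsewhere and 0 reversed. Other settings moved counts of genes called. With a pseudocount of 1 RPM the counts were 3 for E10 AoV against E9 AoV and 4 for E10 AoD against E9 AoD. They were 1 for each of the comparisons of ventral with dorsal parts, 1 for E10 AoD against E10 UGR and 0 in the interaction. In that limma interaction 5 genes had an adjusted p and 8 an unadjusted p under 0.05. With 0.5 RPM the counts were 1 and 1 between the parts, 2 for E10 AoD against E10 UGR and 1 in the interaction. Without a fold threshold they were 7 and 7 between the parts, 5 for E10 AoV and 7 for E10 AoD against E10 UGR. Without a filter all 45 genes were fitted. For E10 AoD against E9 AoD 15 were then called (13 higher, 2 lower), where 2525 of all 28876 genes were. For E10 AoV against E9 AoV 10 were called (9 higher, 1 lower), where 2269 of all genes were. The interaction without a filter called 5 genes. Leaving out 1 library gave 3 to 4 genes for E10 AoD against E10 UGR and 1 to 4 in the interaction, lowest without replicate 2 of E10 AoD. It gave 8 to 9 for E10 AoV and 10 to 11 for E10 AoD against E9.5, and 2 to 4 for E9 AoV against E9 AoD. Over all 30 pairs of libraries with the same number, 11 had a correlation of deviations over 0.1 (median 0.0638), and 11 of 15 libraries were closest to their own number. Between E9 AoV and E9 AoD, where the numbers paired the samples, the replicate block left the 3 calls in place, common to both stages or set within each stage. Without the fold threshold 9 genes passed there with the common block and 10 with the block within stage, against 7 in the main fit. Between E10 AoV and E10 AoD 8 and 9 passed with these blocks, against 7. The common block called 2 genes in the interaction, Ccl6 being lost, and changed no other call. The block within stage, chosen after seeing the data, called 4 in the interaction, Ccl9 being added (-1.23, adjusted p = 0.0473), and changed no other call within a stage. Below 0.5 RPM, changes rest on few reads and follow the pseudocount.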
